A study of Mus musculus with 2 samples.

Results

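Genes of the lipid mediator and formyl peptide systems of neutrophils were compared between cells lacking miR-223 and wild-type cells. The list held 10 genes: the receptors Fpr1, Fpr2, Ltb4r1 and Ptafr, the leukotriene genes Alox5, Alox5ap, Lta4h and Ltc4s, and the cyclooxygenases Ptgs1 and Ptgs2. A gene was measured through every probe set that the platform annotation names for it alone, and 8 of the 10 had at least 1, with 12 probe sets in all, of 18193 measured genes. Fpr1 and Ptgs1 had no probe set named in that annotation and were not analysed here. The cells were neutrophils grown from the bone marrow progenitors of male C57BL/6 mice, either wild-type or mir-223 knockout. Both cultures were kept for 6 days in SCF, which acts on the receptor Kit of progenitors, and G-CSF, which directs them into the granulocyte lineage. Both were exposed to 100 ug/ml cycloheximide, a blocker of translation, for 8 min before harvest. Each culture was hybridized to an Affymetrix 3' array of its own, 1 per genotype, and the labels do not say how many mice gave cells to a culture. With no replicates, no test was run and no difference has a replicate check; the number of arrays limits the precision.

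Neutrophils make leukotriene B4 from arachidonate. The 5-lipoxygenase Alox5, helped by the membrane protein Alox5ap (FLAP), forms leukotriene A4, which the hydrolase Lta4h turns into leukotriene B4. The synthase Ltc4s instead joins leukotriene A4 to glutathione, a route best known in mast cells and eosinophils. Leukotriene B4 draws neutrophils through the receptor Ltb4r1 and thereby relays signals between cells of a swarm. Formyl peptides from bacteria and mitochondria act on Fpr1 and Fpr2, and platelet activating factor (PAF) acts on Ptafr; all of these are G protein-coupled receptors. Cyclooxygenases, the constitutive Ptgs1 and the inducible Ptgs2, start the synthesis of prostaglandins and thromboxane.

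The microRNA missing from the knockout pairs with messenger RNAs through its seed, bases 2 to 8. Both mature arms of mouse miR-223 are shown from RefSeq (GRCm38.p6, plus strand, chrX:96242842-96242864 for the 5p arm and chrX:96242884-96242905 for the 3p arm), with the seed in capitals.
mmu-miR-223-3p: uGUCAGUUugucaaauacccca
mmu-miR-223-5p: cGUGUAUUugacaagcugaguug
None of the other mature mouse microRNAs in that table, which names 1679 in all, shares either seed. Messenger RNA sequences were not used here, so matches to these seeds in the transcripts of the listed genes were not sought.

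All values are deposited linear intensities, in arbitrary units, and a difference is the log2(intensity + 16) of the knockout array less that of the wild-type array. The median intensity was 34.1 in the wild type and 33.7 in the knockout. A gene counted as expressed when its mean log2 value reached the median of all probe sets, 5.64 or an intensity of 33.9, and 11006 genes did. Their median difference was -0.00037 and the SD of their differences 0.18. The SD between the expressed probe sets that target one gene, pooled over 5017 genes, was 0.14; it is a spread within these arrays and not a replicate error. Spiked-in control RNAs gave lower signals in the knockout, by a median of -0.11 for hybridization controls and -0.17 for poly-A controls, so scaling to them would add 0.11 or 0.17 to every difference. S100a8, a calcium-binding protein of neutrophils, was expressed (25757 on the wild-type and 26320 on the knockout array). So was Csf3r, the G-CSF receptor (1630.2 and 2057). Markers of other cell types passed the cut too, among them Csf1r of macrophages (3580 and 3836). The neutrophil label was thus not tested by these values.

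The leukotriene B4 route stood higher in the knockout array at its first enzyme Alox5, its receptor Ltb4r1 and, on 2 of 3 probe sets, its last enzyme Lta4h, while Fpr2 was near 0. Of the 5 expressed genes of the list, Alox5 (0.45), Ltb4r1 (0.36), Lta4h (0.19) and Alox5ap (0.07) were higher and Fpr2 (-0.02) was lower, and Fpr2 turned higher when scaled to either set of spike-ins. Of all expressed genes, 49.7% were higher and 50.1% lower. None of the 5 differed by 0.5 or more, which 1.72% of expressed genes did. Alox5, Ltb4r1 and Lta4h were higher by more than the SD between probe sets, as were 18.8% of expressed genes. The median of the 5 was 0.19, against the -0.00037 over all expressed genes. Because the other 3 measured genes lay below the expression cut, the counts and the median do not cover them.

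**Figure D1:**
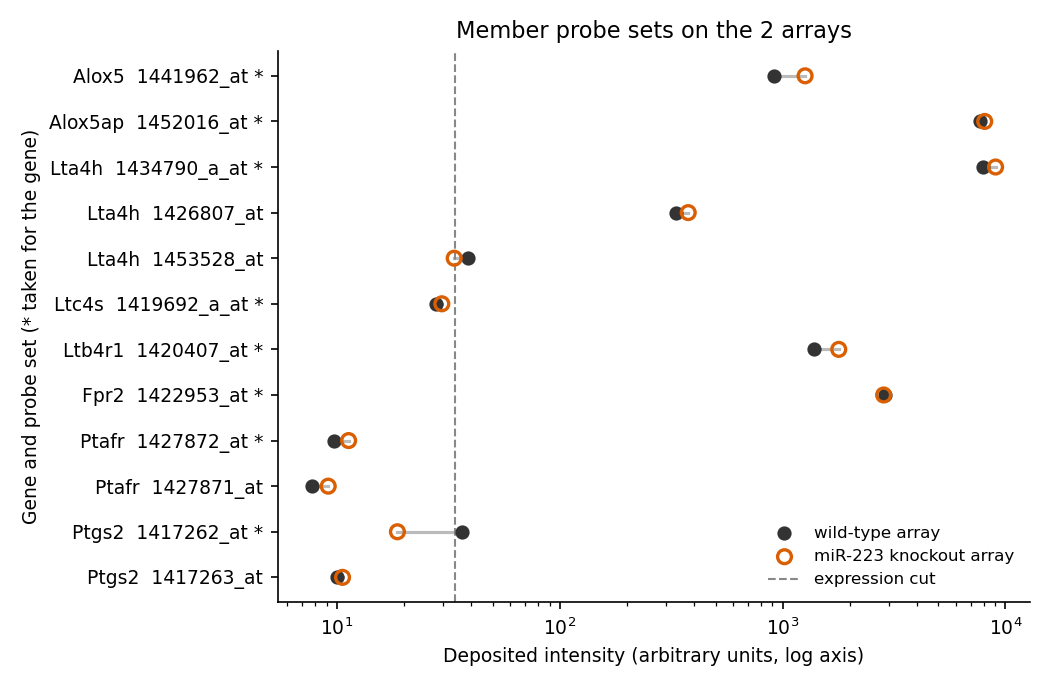
Deposited intensity (arbitrary units, log axis) of each of the 12 probe sets on the wild-type array (filled) and the knockout array (open), with the expression cut at 33.9 as a dashed line. Alox5 and Ltb4r1 lie to the right on the knockout array, and Ptgs2 probe set 1417262_at lies to the left of the cut there and just above it on the wild-type array.

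Among the leukotriene synthesis genes, Alox5 had the largest difference. Its probe set 1441962_at gave 917 in the wild type and 1262 in the knockout, a ratio of 1.38. Of the 11006 expressed genes, 178 (1.62%) had a difference at or above its 0.45. It rests on a single probe set, with no other to set beside it. Alox5ap, the partner that presents arachidonate to the lipoxygenase, gave 7691 and 8073 (0.07), within the spread between probe sets.

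Lta4h, the hydrolase that yields leukotriene B4, was measured by 3 probe sets that did not all point the same way. Probe set 1434790_a_at, the one taken for the gene, gave 7912 and 9029.8 (0.19). Probe set 1426807_at gave 332 on the wild-type and 377 on the knockout array (0.18). The dimmest, 1453528_at, lay close to the expression cut at 38.6 and 33.6 (-0.14). With the mean of its probe sets Lta4h stood at 0.08, inside the spread between probe sets; 13.2% of expressed genes were at or above the 0.19 of the brightest.

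Ltc4s, the synthase of cysteinyl leukotrienes, was below the expression cut on both arrays, at 28.0 and 29.6 (0.05). No direction is read from so dim a pair of values.

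Of the chemoattractant receptors, Ltb4r1 was higher in the knockout and Fpr2 lay close to 0. Ltb4r1, the high-affinity receptor of leukotriene B4, gave 1388 in the wild type and 1786 in the knockout, a ratio of 1.29, and 353 expressed genes (3.21%) had a difference at or above its 0.36. Fpr2, a receptor of formyl peptides and of annexin A1, gave 2879 and 2841, a ratio of 0.986. Both rest on 1 probe set. Their difference from each other, one near the upper edge of the distribution and the other at its centre, was not tested.

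Ptafr, the PAF receptor, was near the floor of both arrays. Probe set 1427872_at gave 9.74 on the wild-type and 11.3 on the knockout array, and probe set 1427871_at gave 7.72 and 9.14. Both differences were 0.08, and at a pseudocount of 64 the gene stood at 0.03. No direction is read from these values either.

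**Figure D2:**
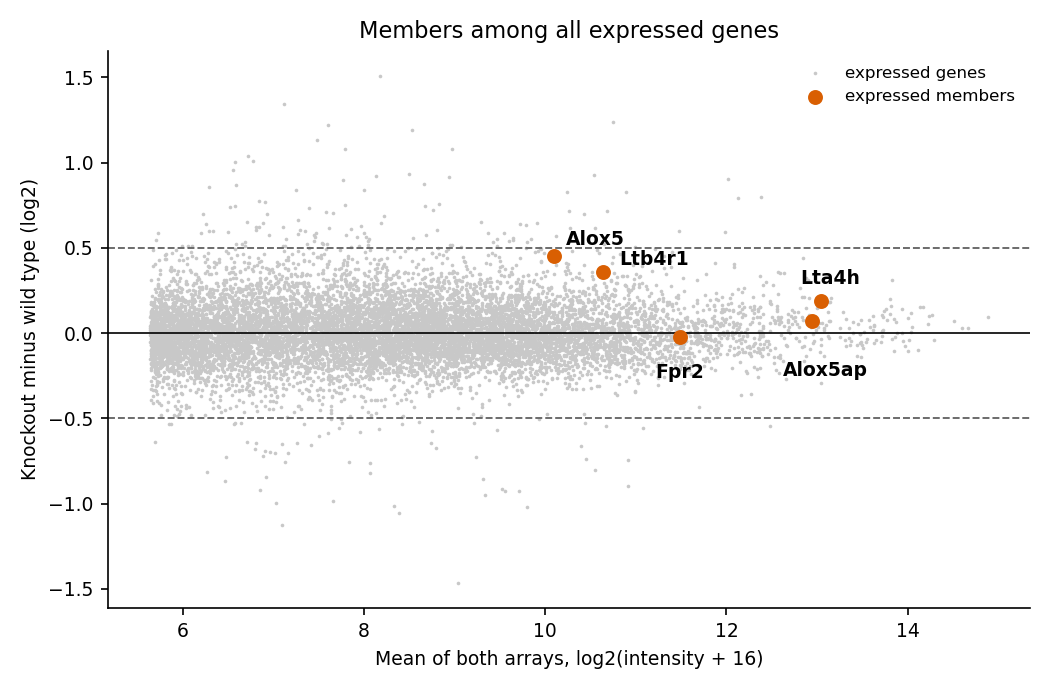
Difference (knockout minus wild type, log2) against the mean log2(intensity + 16) of both arrays for 11006 expressed genes (grey) and the 5 expressed genes of the list (orange); dashed lines mark 0.5 in either direction. Alox5 (0.45) and Ltb4r1 (0.36) lie toward the upper edge of the cloud but below the line, and Fpr2 (-0.02) lies in its centre.

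Ptgs2, the inducible cyclooxygenase, was the only measured gene of the list with a difference of 0.5 or more in size, as deposited, and it was a dim one. Probe set 1417262_at gave 36.3 on the wild-type array, just above the expression cut, and 18.7 on the knockout one, below it (-0.59). Its other probe set, 1417263_at, gave 10.0 and 10.6 (0.03) and so did not share the difference. Over all 18193 measured genes, without the expression filter, 197 differed by 0.5 or more in either direction, and 69 (0.379%) were lower by as much. The difference was -0.92 with a pseudocount of 1, -0.28 with a pseudocount of 64 and -0.28 with the mean of both probe sets.

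The differences moved little with the scaling of the arrays except to the spike-ins. Alox5 ranged from 0.43 to 0.63 over 9 alternatives, Ltb4r1 from 0.34 to 0.53, and Alox5ap from 0.05 to 0.24. Lta4h ranged from 0.08, with the mean of its probe sets, to 0.36. In Alox5, Ltb4r1, Alox5ap and Lta4h the highest value came from scaling to the poly-A controls. Fpr2 ranged from -0.02 to 0.15 and was above 0 under both spike-in scalings.

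**Figure D3:**
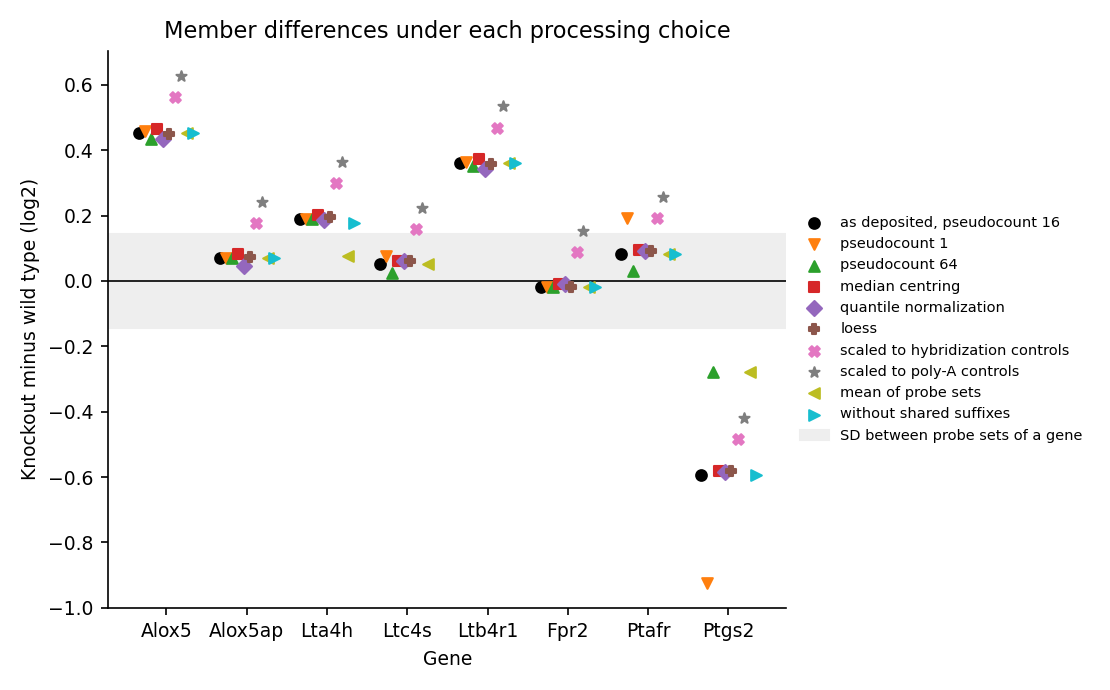
Difference (knockout minus wild type, log2) of the 8 measured genes as deposited (black circles) and under each alternative (other symbols); the grey band is 1 SD between probe sets of a gene, 0.14 either way. Alox5 and Ltb4r1 stay above the band throughout, Fpr2 crosses 0 under the spike-in scalings, and Ptgs2 spreads from -0.92 to -0.28.

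The promoters of Alox5 and Ltb4r1, the 2 measured genes furthest above 0, and of Ptgs2, the one furthest below 0 and not expressed, are shown for what they hold near the transcription start. Windows are from RefSeq (GRCm38.p6), 250 bases before to 50 after the start of the gene, read on the gene's strand: chr6:116461129-116461428 (minus strand) for Alox5, chr14:55765712-55766011 (plus strand) for Ltb4r1 and chr1:150099781-150100080 (plus strand) for Ptgs2. Capitals mark the motifs searched on both strands: the GC box GGGCGG bound by Sp and Klf factors, the ETS core AGGAAG of the family of PU.1, the C/EBP motif TTNNGCAA, the E-box CACGTG and the TATA box TATAAA.
Alox5 promoter: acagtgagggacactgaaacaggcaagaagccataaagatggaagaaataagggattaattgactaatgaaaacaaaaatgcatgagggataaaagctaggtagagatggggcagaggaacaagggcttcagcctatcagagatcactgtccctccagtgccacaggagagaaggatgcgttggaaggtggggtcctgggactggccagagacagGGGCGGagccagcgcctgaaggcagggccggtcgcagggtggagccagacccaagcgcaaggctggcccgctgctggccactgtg
Ltb4r1 promoter: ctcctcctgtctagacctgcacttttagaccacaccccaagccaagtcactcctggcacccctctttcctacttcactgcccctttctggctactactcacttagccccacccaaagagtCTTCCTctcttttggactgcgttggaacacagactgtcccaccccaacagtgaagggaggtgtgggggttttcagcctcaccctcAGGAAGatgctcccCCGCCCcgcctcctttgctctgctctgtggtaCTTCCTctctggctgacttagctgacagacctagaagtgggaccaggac
Ptgs2 promoter: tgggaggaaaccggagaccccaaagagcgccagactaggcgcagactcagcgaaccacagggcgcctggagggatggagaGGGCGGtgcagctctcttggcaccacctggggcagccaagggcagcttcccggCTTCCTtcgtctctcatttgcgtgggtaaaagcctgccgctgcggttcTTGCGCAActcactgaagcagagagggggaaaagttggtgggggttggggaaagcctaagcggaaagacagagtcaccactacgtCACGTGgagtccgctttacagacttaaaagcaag
Alox5 held 1 GC box, 35 bases before the start on the gene's strand, and no other motif of the search. Ltb4r1 held 1 GC box, on the other strand from base -31, and 3 ETS cores from bases -130, -45 and 2. Ptgs2 held a GC box, an ETS core, the palindromic C/EBP match TTGCGCAA from base -69 and an E-box from base 17. Over all 32851 promoter windows of the table, 35.7% held a GC box, 35.4% an ETS core, 10.8% the C/EBP motif, 7.15% the E-box and 13.6% the TATA box. No match shown overlaps another motif. A match is a run of letters and not a measured binding site. Of the 9 listed genes with a window in the table, 4 held a GC box and 4 an ETS core. Lta4h held none of the motifs. Fpr2 and Fpr1 each held only a match to the TATA box letters, from bases -130 and -227. No window was listed for Alox5ap.

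The wider pathways were split nearly evenly. Of 99 other genes in 6 classes, 89 were measured and 66 expressed. Of these, 37 were higher and 29 lower, or 34 and 32 under quantile normalization. The split was 50 to 16 when scaled to the hybridization controls and 56 to 10 with the poly-A controls, where all expressed genes shift too. Of all expressed genes, 49.7% were higher as deposited and 45.5% under quantile normalization. The share was 78% scaled to the hybridization controls and 88.7% scaled to the poly-A controls. The splits of the 6 classes and of the marker lists below are to be read beside these shares. Their median was 0.03. By the probe set taken, Rgs2 was the 1 gene higher by 0.5 or more (0.62, but 0.47 with the mean of probe sets). Hcar2 was the 1 lower by as much (-0.66, but -0.48 scaled to the poly-A controls). Dimmer probe sets of Lpcat2 (0.84) and Gng2 (0.75) were higher by 0.5 or more too. Of 25 expressed genes with 2 or more expressed probe sets, 13 had probe sets of both signs.

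Upstream of the lipoxygenase, the genes of arachidonate release and PAF were divided 7 higher to 7 lower. The split was 10 to 4 scaled to the hybridization controls, 11 to 3 scaled to the poly-A controls and 5 to 9 under quantile normalization. Their median was -0.01 as deposited and -0.04 under quantile normalization. It was above 0 under both spike-in scalings, median centring, the mean of probe sets, probe sets without shared suffixes and the 75th percentile filter. Pla2g4a, the cytosolic phospholipase that frees arachidonate, gave 629.6 in the wild type and 586 in the knockout (-0.10, or 0.07 when scaled to the poly-A controls). By the probe set taken for each gene, Pafah1b3, a catalytic subunit of a PAF acetylhydrolase, had the largest difference (69.9 and 91.5, 0.32). Pla2g4e came next (37.9 and 46.9, 0.22), close to the expression cut, and stood at 0.12 with a pseudocount of 64. Lpcat2 had 2 expressed probe sets of opposite sign, at -0.20 for the brighter and 0.84 for the other. That 0.84 was larger than the difference of Pafah1b3.

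Lipoxygenases with leukotriene breakdown and export were 5 higher and 5 lower, or 7 and 3 scaled to the hybridization controls and 8 and 2 scaled to the poly-A controls. Cyp4f18, the cytochrome that hydroxylates leukotriene B4 in mouse neutrophils, gave 364 in the wild type and 521 in the knockout, a difference of 0.50 that falls just short of the 0.5 counted. Its second probe set was below the cut, and with the mean of both it stood at 0.20. Mgst3, a microsomal glutathione transferase of the family of Alox5ap and Ltc4s, gave 166 and 215 (0.34). Its second probe set was below the cut too, and with the mean of both Mgst3 stood at 0.23. Alox5, which starts the synthesis of leukotriene B4, and Cyp4f18, which hydroxylates it, thus both had higher intensities in the knockout.

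Downstream of cyclooxygenase, 4 synthesis, breakdown and transport genes were higher and 5 lower, with 5 higher and 4 lower under median centring, with the mean of probe sets or scaled to the hybridization controls, 7 and 2 scaled to the poly-A controls, 3 and 2 at the 75th percentile filter and 4 each without shared suffixes. Tbxas1, thromboxane synthase, gave 264 and 333 (0.32), and Abcc4, an exporter of prostaglandins, gave 758 and 932 (0.29). The leukotriene and prostanoid receptors were 5 higher and 2 lower of 7 expressed, or 6 and 1 under the spike-in scalings, and their median was 0.18. Ptger2, a prostaglandin E2 receptor, gave 163 and 201 (0.28), and Tbxa2r, the thromboxane receptor, gave 84.9 and 101 (0.21).

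A further class held formyl peptide relatives, their ligands and other G protein-coupled receptors, not all of them chemoattractant receptors. In it 4 genes were higher and 2 lower of 6 expressed, and 3 each with the mean of probe sets. The relatives Fpr-rs3 (11.7 and 11.9) and Fpr-rs4 (12.7 and 12.0) were below the cut on both arrays. Anxa1, the annexin that acts on Fpr2, gave 14889 on the wild-type and 16406 on the knockout array (0.14), and its probe sets ranged from 0.14 to 0.49. Hcar2, a receptor of hydroxybutyrate and nicotinate, was the lowest at 199 and 120.3 (-0.66), and Gpr84, a receptor of medium-chain fatty acids, stood at -0.27. Genes of the shared Gi pathway were 12 higher and 8 lower, with 18 and 2 scaled to the hybridization controls and 20 and 0 scaled to the poly-A controls. Under those 2 scalings 78% and 88.7% of all expressed genes were higher. Rgs2, a regulator that turns off G protein signals, gave 1195 and 1843 (0.62), with all 3 expressed probe sets between 0.56 and 0.62. Plcb2, the phospholipase C that chemoattractant receptors activate, gave 107 and 144 (0.38).

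**Figure D4:**
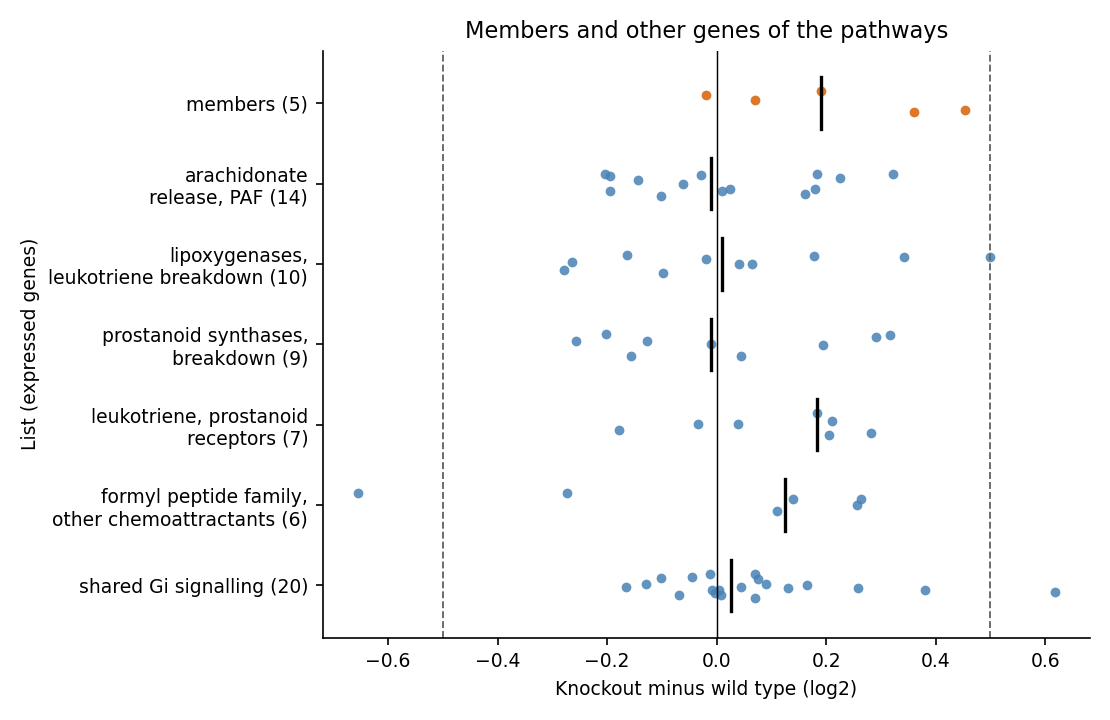
Difference (knockout minus wild type, log2) of each expressed gene (points) in the list of 5 and in 6 classes of related genes, with the median of each as a black bar, dashed lines at 0.5 and the number of genes in brackets. Rgs2 (0.62) and Hcar2 (-0.66) lie outside the dashed lines, and the medians of the classes run from -0.01 to 0.18.

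Markers of several cell types differed too between the arrays, and whether those cells were in the cultures was not tested. Of 10 expressed neutrophil markers, 9 were higher. Camp, an antimicrobial peptide gene, was the other one (-0.29). The median of the 10 was 0.18, with a summed intensity of 113049 on the wild-type and 117529 on the knockout array; under quantile normalization 6 were higher, 1 lower and the others at 0. Of the 10, 5 were higher and 1 lower by more than the SD between probe sets, and the others lay inside it. The defining marker S100a8 was among those inside it, at 0.03. Csf3r stood at 0.33 and the integrin Itgam at 0.65, beside the 0.45 of Alox5 and the 0.36 of Ltb4r1. Of 9 monocyte and macrophage markers, 7 were higher and 2 lower, or 8 and 1 under the spike-in scalings. Their median was 0.16, over a range from Cx3cr1 (-0.60) to the lipoprotein Apoe (1.51), and their summed intensity was 6617 and 7714. Ly86, a partner of a Toll-like receptor homologue, stood at 0.71. The defining macrophage markers Csf1r (0.10) and Adgre1 (-0.02, above 0 under the spike-in scalings) lay inside that spread of 0.14.

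Markers of mast cells, basophils, eosinophils and platelets were mostly lower. All 9 expressed markers of mast cells and basophils had lower values, with a median of -0.53 and a summed intensity of 6666 on the wild-type and 4644 on the knockout array; under the spike-in scalings and with the mean of probe sets 8 were lower and 1 higher. The mast cell protease Cpa3 gave 1796 and 1071 (-0.74) and the IgE receptor chain Fcer1a gave 332 and 220.3 (-0.56). The proteases Cma1 (-0.76) and Mcpt8 (-0.55), the IgE receptor chain Ms4a2 (-0.53) and the transcription factor Gata2 (-0.53) were the others at 0.5 or more in size. With the mean of probe sets, Ms4a2 stood at -0.497 and Gata2 at -0.36, and the dimmer Gata2 probe set gave -0.20. Of 4 eosinophil markers 3 were lower, which were Epx (105 and 79.4) and the granule proteins Prg3 (-0.92) and Prg2 (-0.73). Siglecf was higher (187 and 369.6). Their summed intensity was 1192 and 968, and their median of -0.53 became 0.10 over the 2 left at an expression filter at the 75th percentile. Of 7 platelet markers 6 were lower, or 5 under the spike-in scalings, among them the chemokines Pf4 (996 and 521) and Ppbp (465 and 215), with a summed intensity of 2020.2 and 1299. The integrin Itgb3 was higher and had the largest difference of that list (71.1 and 205, 1.34), with its 2 probe sets at 0.37 and 1.34. The defining markers of these cell types, Cpa3, Fcer1a, Epx (-0.34) and Pf4 (-0.91), were lower by more than the SD between probe sets. In such bulk RNA, fewer cells of a type and less RNA per cell cannot be told apart, and the part of these cells in the values of Alox5, Ltb4r1, Lta4h or Ptgs2 was not tested.

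**Figure D5:**
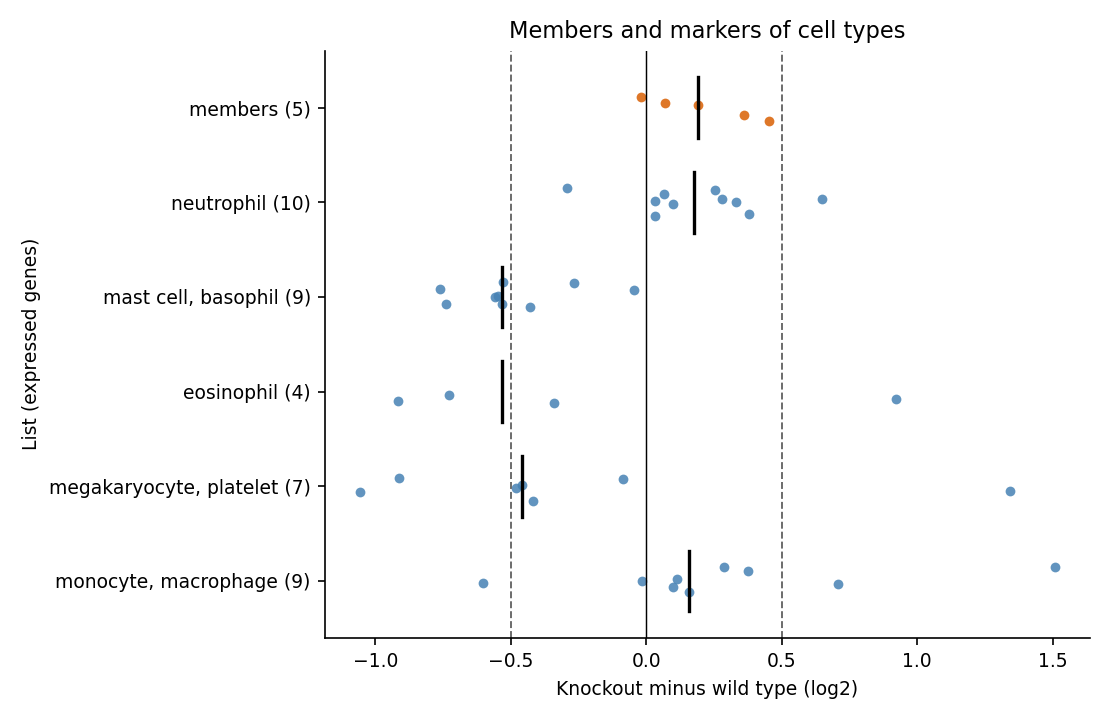
Difference (knockout minus wild type, log2) of each expressed gene (points) in the list of 5 and in marker lists of 5 cell types, with medians as black bars and dashed lines at 0.5. The median of the list (0.19) lies beside that of the neutrophil markers (0.18) and of the monocyte and macrophage markers (0.16), and the mast cell and basophil (-0.53), eosinophil (-0.53) and platelet (-0.46) medians lie lower.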

How the data were processed

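Total RNA, extracted with Trizol and labelled as cRNA with the Affymetrix 3' IVT Express kit per the labels' protocols, was measured on 1 array per genotype. The deposited value of each probe set is a linear intensity; its background correction, summarization and scaling are not described in the sources used here. Of 45101 probe sets, 64 were controls, 34945 had exactly 1 gene in the platform annotation, 932 had several and 9160 had no name. Symbols of 34741 were updated through Entrez identifiers (RefSeq, GRCm38.p6). Values were used as deposited and transformed to log2(intensity + 16), a scale that understates the differences of dim genes. The probe set with the highest mean stood for its gene. Levels of different genes are not compared, since probe sets differ in binding. No test was possible.

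The members, the pathway and marker lists and the call sizes (0.5 and 1 on the log2 scale) were chosen with earlier results of these data known. Named were all members, the 2 largest differences and any of 0.5 or more in each pathway class, and the defining markers and markers at 0.5 or more. Pla2g4a, Lpcat2, Gng2, Anxa1, Camp, Fpr-rs3 and Fpr-rs4, and the comparison with the SD between probe sets, were added after values were seen. Alternatives were pseudocounts of 1 and 64, median centring, quantile normalization, loess (span 0.3), scaling to spike-ins, the mean of probe sets, leaving out shared-suffix probe sets, and other expression filters. The counting was run on simulated data whose planted differences were larger than that of any listed gene (Python 3.11.15, pandas 2.3.3, statsmodels 0.14.6). That run does not bear on differences as small as those of the listed genes.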

Additional observations from a re-analysis of the deposited data

How the results depend on the processing

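The median of the expressed listed genes was 0.19 as deposited and stayed between 0.08 and 0.30 under the alternatives other than scaling to the poly-A controls, which gave 0.36. Scaled to the hybridization controls, 0 of 5 were lower and 1 (Alox5) differed by 0.5 or more; scaled to the poly-A controls, 0 were lower and 2 (Alox5 and Ltb4r1) did. Without an expression filter, 2 of 8 were lower and 1 (Ptgs2) differed by 0.5 or more. The median of the other pathway genes was 0.03 and became 0.20 with the poly-A controls, with 56 higher and 10 lower, and 16 were lower with the hybridization controls; at a filter at the 75th percentile 17 were lower of 45. The share of all expressed genes that were higher was 49.7% as deposited, 78% with the hybridization controls and 88.7% with the poly-A controls, so both shifts move all genes together by construction. Over all expressed genes, 189 differed by 0.5 or more, and 288 did with a pseudocount of 1, 107 with 64, 321 and 496 with the hybridization and poly-A controls and 102 at the stricter filter. By 1 or more, 16 differed, and 4 did with a pseudocount of 64, 26 with the poly-A controls and 9 at the stricter filter. No named gene at 0.5 or more changed sign under any alternative in which it had a value. Ltc4s, Apoe, Cma1, Gata2, S100a8, Adgre1 and Pla2g4a had no value without shared-suffix probe sets. Low signal limits Ptgs2, Ltc4s and Ptafr. No paired analysis was possible because each genotype has 1 array.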
